A study of Mus musculus with 18 samples.

Results

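Mouse embryonic fibroblasts that carried 1 copy of a mutant allele of the TGFb pathway were compared with wt fibroblasts after 4 h of TGFb, on the 2 heterozygous_TGFb_4hr arrays and the 2 wt_TGFb_4hr arrays, 4 of the 18 arrays of the series. The arrays were chosen by their titles alone. The heterozygous group was heterozygous for an allele that the labels call constitutively active, and it received 5 ng/mL TGFb1 for 4 h. The wt group had neither mutant copy and received the same ligand for the same time. The title of the series places a point mutation in TGFBR1 whereas its design text names TGFb1, so the allele is called here only the mutant. All cells were grown from the minced bodies of E12.5 to E14.5 fetuses without head, liver and blood clots, and such cultures can hold other cell types besides fibroblasts. Untreated cells, cells at 24 h of TGFb and homozygous cells made up the other 14 arrays, 2 for each of the remaining 7 groups. The labels do not state whether a group's 2 arrays are separate cultures or embryos. Every p-value therefore measures only the spread between arrays within groups, pooled over the series, which may be technical in some pairs. Sex-linked genes differed within the wt pair at 4 h, as given below, so those 2 arrays did not hold the same RNA.

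TGFb ligands are secreted in a latent form and, once released, bring a type II receptor and the type I receptor TGFBR1 together. TGFBR1 then phosphorylates SMAD2 and SMAD3, which enter the nucleus with SMAD4 and change transcription. In fibroblasts the pathway is known for raising matrix and contractile genes and for inducing its own inhibitors, and in macrophages for restraining inflammatory activation.

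Levels are log2 GCRMA intensities, and a difference is heterozygous minus wt on that scale. It is given with its standard error (±) from limma, 2 arrays in each group. That error and each p-value rest on a spread pooled over all 18 arrays, not on the 4 arrays alone. Where the 2 wt arrays lay far apart, the error can understate the spread of these 4 arrays. Ly86, described below, had standard deviations of 0.123 in the heterozygous pair and 1.508 in the wt pair, with an error of 0.518. A gene was called when its adjusted p over 10078 genes was under 0.05. A log2 level under 5 is called dim, and where both arrays of a group were dim the change is given only as a bound against that level. The bound uses the mean of the other group, which can itself include 1 dim array, as for Spata5l1 and Pik3ap1 below. Per array, 39.55 to 39.94% of probe sets lay above the dim level in the 4 arrays compared. Most fibroblast markers were bright: Vim, an intermediate filament of mesenchymal cells, was at 15.77 and 15.76 in heterozygous arrays, against 15.78 and 15.85 in wt arrays, and Col1a2, a chain of type I collagen, was at 15.33 and 15.28 in heterozygous arrays, against 14.98 and 15.26 in wt arrays. Pdgfra, a receptor for platelet-derived growth factor, was the 1 of the 10 fibroblast markers that was dim in any of the 4 arrays, at 4.41 and 4.38 in heterozygous arrays, against 5.35 and 4.08 in wt arrays. Of the 10 markers 0 were called, and their median difference was -0.13.

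The arrays of the wt pair stood apart from each other. The root mean square of the standard deviation between replicates was 0.222 log2 in the heterozygous pair and 0.387 in the wt pair. Xist, the RNA that coats the inactive X chromosome, was at 11.75 and 11.32 in heterozygous arrays, against 1.60 and 11.27 in wt arrays. The mean of 3 Y-linked genes was 2.62 and 3.10 in heterozygous arrays, against 8.66 and 3.06 in wt arrays. Replicate 1 of wt thus differed from the other 3 arrays in its sex-linked genes, while replicate 2 of wt lay with the heterozygous arrays. It also had the lowest macrophage signal of the 4. None of these genes was called between the genotypes, and the part of sex in the results was not tested beyond the fit with the Y-linked mean as a covariate, which called 186 genes.

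Heterozygous cells had higher macrophage RNAs than wt cells. Among 12 ligand, 9 receptor and Smad, 13 feedback and 21 target genes of TGFb 1 was called. The share called among all genes tested was 1.43%, and lists this small cannot be told from it by that count. Of 10078 genes 144 were called, 1.43% of those tested, of which 121 were higher (1.2%) and 23 lower (0.228%) in heterozygous cells. By the measured values 90 genes were higher and 8 lower by more than 2-fold. Both wt arrays were dim in 37 of the genes called higher, where only a bound holds. Part of the 90 therefore rests on levels under 5, and the sizes of rises and falls are not compared. The median difference of all genes was 0.01. Scaling moved this split, since 99 genes were higher and 38 lower with equal array medians, and 102 were higher and 34 lower after quantile normalization. The number of calls rested on single arrays. It was 1220 without replicate 1 of wt, 161 without replicate 2 of wt, 42 without replicate 1 of the heterozygous cells and 102 without replicate 2. Across these 4 fits 33 genes were called each time, 26 higher and 7 lower. In all of the called genes the heterozygous and wt arrays did not overlap, as in 32% of all genes tested.

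**Figure D1:**
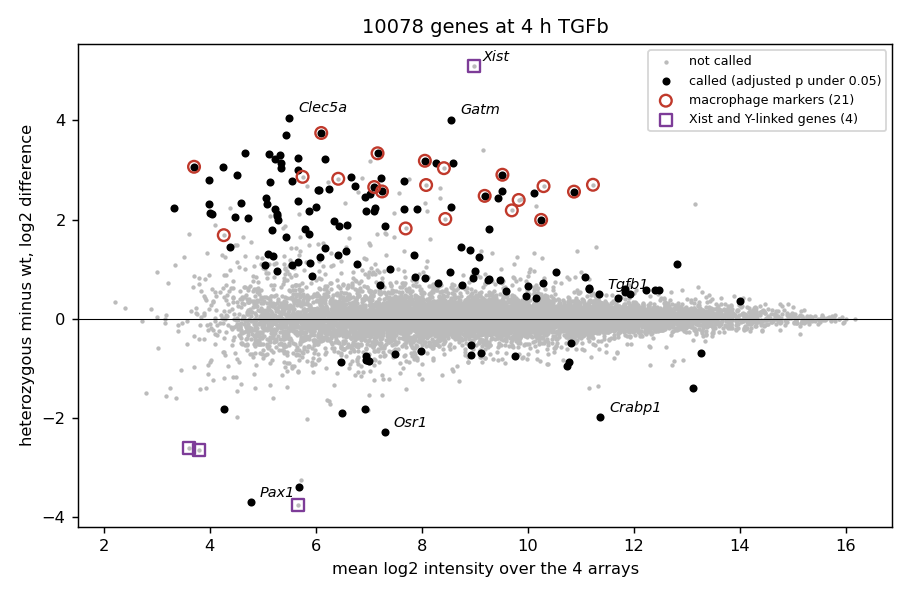
Difference between heterozygous and wt cells at 4 h TGFb (log2, y axis) against the mean log2 intensity of the 4 arrays (x axis), with 1 point for each of 10078 genes, called genes in black, 21 macrophage markers circled in red and Xist with 3 Y-linked genes in purple squares. The called genes lie mostly above 0, the macrophage markers lie between 1.68 and 3.75, and Pax1 is the lowest called gene.

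The macrophage markers were higher in heterozygous cells as a list. The list was chosen with earlier results of these data known, so its shared direction is not independent support. All 21 were measured, and 10 were called higher and 0 lower, against 1.2% and 0.228% of all genes tested. Their median difference was 2.67, against 0.01 for all genes. In all 21 both heterozygous arrays lay above both wt arrays, an order found in 17.2% of all genes tested. Lyz2, the lysozyme of macrophages, was at 12.66 and 12.50 in heterozygous arrays, against 8.77 and 10.99 in wt arrays, and was not called (2.70 ± 0.67, adjusted p = 0.0745). Both heterozygous arrays were high and close to each other, while the wt arrays differed from each other by more than 2 log2 units. Ctss, the lysosomal protease cathepsin S, was at 12.39 and 11.91 in heterozygous arrays, against 9.08 and 10.10 in wt arrays, and was called (2.56 ± 0.41, adjusted p = 0.00643). Fcer1g, the shared signalling chain of Fc receptors, was at 10.73 and 10.12 in heterozygous arrays, against 7.25 and 8.65 in wt arrays (2.48 ± 0.42, adjusted p = 0.00905). For both genes replicate 2 of wt lay between replicate 1 of wt and the heterozygous arrays. Csf1r, the receptor for the macrophage growth factor CSF1, was at 11.04 and 11.01 in heterozygous arrays, against 7.77 and 9.49 in wt arrays, and missed the threshold (2.39 ± 0.55, adjusted p = 0.0533).

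Summed over the 21 markers the linear intensity was 33681 and 25070 in heterozygous arrays, against 2698 and 9567 in wt arrays. Their mean log2 level was 9.63 and 9.13 in heterozygous arrays, against 5.90 and 7.59 in wt arrays. Dim markers numbered 0 and 1 in the heterozygous arrays, against 6 and 2 in the wt arrays, so none of the 4 arrays lacked the signal altogether. In bulk RNA fewer cells of a type and less RNA per cell cannot be told apart. The count of called markers was 18 without replicate 2 of wt, 7 without replicate 1 of wt, 7 without replicate 2 of the heterozygous cells and 0 without replicate 1 of the heterozygous cells, with medians of 1.82 to 3.42 over these 4 fits. It was 1 with array weights, 1 with only the wt and heterozygous arrays fitted and 0 with only the 4 arrays compared, against 21 with a crossed replicate block that was added after the data were seen. With the marker mean itself as a covariate 0 were called higher and 1 lower. That outcome was largely set in advance, since the mean is made of these markers. The mean also ran with genotype in the 4 arrays, and the fit called 1321 genes, of which 49 were shared with the 144. Values with this covariate, here and below, therefore do not separate a macrophage part of a difference from the rest. Replicate 2 of wt lay above replicate 1 in 81 of the 121 genes called higher, and in 4439 of all 10078 genes. Heterozygous arrays were also above wt arrays at the other times: the mean was 9.45 and 8.92 untreated and 9.25 and 8.58 at 24 h in heterozygous arrays, against 7.11 and 5.97 untreated and 5.44 and 6.67 at 24 h in wt arrays. In homozygous arrays at 4 h it was 8.94 and 9.02.

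**Figure D2:**
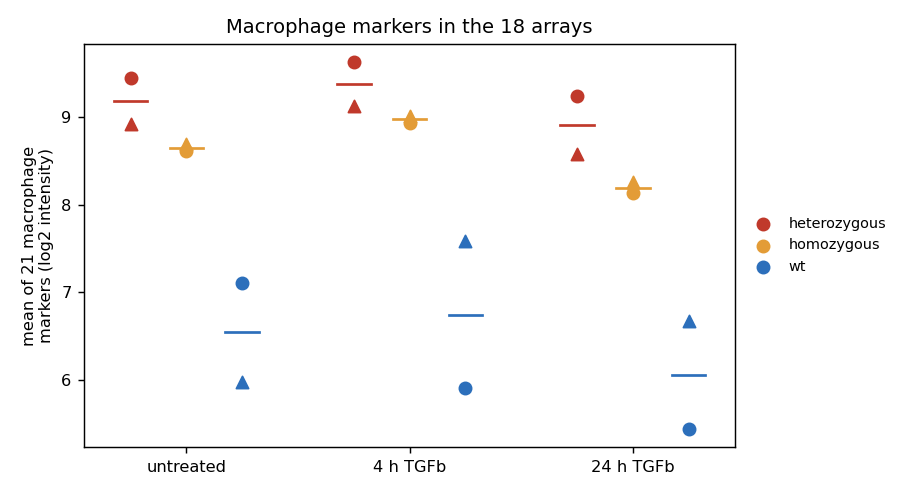
Mean log2 intensity of 21 macrophage markers (y axis) in each of the 18 arrays, by treatment (x axis) and genotype (colour), with circles for replicate 1, triangles for replicate 2 and a line at each group's mean. The heterozygous arrays lie between 8.58 and 9.63, above all wt arrays, which lie between 5.44 and 7.59, and the wt pairs are farther apart than the mutant pairs.

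Macrophage genes are commonly driven by PU.1, the ETS factor that Spi1 encodes. Spi1 was itself called, at 7.24 and 7.11 in heterozygous arrays, against 3.40 and 4.93 in wt arrays, a rise of at least 4.52-fold over the dim level (adjusted p = 0.000806). It was picked after its values were seen, as were the motif and the promoters described next. One ETS core, AGGAAGT on either strand, was searched in the RefSeq promoters of build GRCm38.p6, which run over 250 bases before and 50 after a gene's start. It was found in 19.4% of the promoters of genes called higher (19 of 98), in 0 of 16 of those called lower and in 46.7% (7 of 15) of those of the macrophage list, against 8.52% (702 of 8242) of all genes tested with a promoter in the table. These are counts of letters without a test, and they say nothing about binding. The macrophage list was itself chosen with earlier results of these data known. The first 3 promoters below are shown because they hold the core, and that of Gatm because it does not, although Gatm was the most certain rise. The core is in capitals, as ACTTCCT where it lies on the other strand, and all are printed 5′ to 3′ on the gene's own strand. Cd53 lies at chr3:106790100-106790399 (minus strand), Ctss at chr3:95526536-95526835 (plus strand), C5ar1 at chr7:16259289-16259588 (minus strand) and Gatm at chr2:122611228-122611527 (minus strand).
Cd53: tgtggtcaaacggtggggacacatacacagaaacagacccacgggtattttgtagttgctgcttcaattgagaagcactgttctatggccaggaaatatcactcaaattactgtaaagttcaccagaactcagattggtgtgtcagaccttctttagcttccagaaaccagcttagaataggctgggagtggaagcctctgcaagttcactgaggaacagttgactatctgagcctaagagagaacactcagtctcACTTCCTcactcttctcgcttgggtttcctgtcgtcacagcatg
Ctss: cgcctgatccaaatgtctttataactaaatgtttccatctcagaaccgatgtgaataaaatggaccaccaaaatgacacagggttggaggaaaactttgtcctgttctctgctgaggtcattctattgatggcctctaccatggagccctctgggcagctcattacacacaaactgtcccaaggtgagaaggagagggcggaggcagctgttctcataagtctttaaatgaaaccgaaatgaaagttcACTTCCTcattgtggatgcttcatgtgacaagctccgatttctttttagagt
C5ar1: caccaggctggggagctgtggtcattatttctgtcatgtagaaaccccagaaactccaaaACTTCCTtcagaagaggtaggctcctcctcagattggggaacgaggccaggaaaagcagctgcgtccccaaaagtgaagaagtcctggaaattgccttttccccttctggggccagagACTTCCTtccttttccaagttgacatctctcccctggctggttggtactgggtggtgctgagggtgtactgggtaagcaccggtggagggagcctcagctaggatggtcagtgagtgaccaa
Gatm: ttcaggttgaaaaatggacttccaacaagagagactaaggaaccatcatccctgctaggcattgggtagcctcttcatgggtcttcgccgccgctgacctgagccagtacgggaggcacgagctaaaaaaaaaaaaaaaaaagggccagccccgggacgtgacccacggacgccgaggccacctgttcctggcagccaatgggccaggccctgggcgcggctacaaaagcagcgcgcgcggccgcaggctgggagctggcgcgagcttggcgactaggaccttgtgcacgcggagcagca
C5ar1 holds 2 cores, Cd53 and Ctss hold 1 each, close to the start, and Gatm holds 0.

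The largest rises besides Gatm included immune receptors and signalling genes. They were picked among called genes whose groups did not overlap, so that absence of overlap is no separate result. Clec5a, a C-type lectin receptor of myeloid cells, was at 7.90 and 7.16 in heterozygous arrays, against 2.61 and 4.34 in wt arrays, a rise of at least 5.78-fold over the dim level (adjusted p = 0.00208). Irf8, a transcription factor of the monocyte lineage, was at 7.28 and 7.30 in heterozygous arrays, against 3.01 and 4.16 in wt arrays, at least 4.88-fold (adjusted p = 0.000164). Stab1, a scavenger receptor, was at 7.04 and 6.65 in heterozygous arrays, against 3.57 and 3.69 in wt arrays, at least 3.60-fold (adjusted p = 2.44e-05). All 3 were above the dim level in both heterozygous arrays and under it in both wt arrays. Hpgd, which inactivates prostaglandins, was at 7.44 and 7.14 in heterozygous arrays, against 3.88 and 4.23 in wt arrays, at least 4.90-fold (adjusted p = 0.000402). Gpr84, a receptor for medium-chain fatty acids, was at 6.60 and 6.98 in heterozygous arrays, against 2.85 and 4.08 in wt arrays, at least 3.46-fold (adjusted p = 0.00156). Their groups did not overlap, and these 5 calls held without each of the 4 arrays. The macrophage markers were high in the same arrays. With the marker mean as a covariate Clec5a (adjusted p = 0.0468), Irf8 (0.00348), Stab1 (0.00158) and Hpgd (0.0146) stayed called and Gpr84 did not (0.05), and no size is given for these genes because both wt arrays were dim.

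The remaining large rises were less certain because a single array could end the call. Clec4n, another C-type lectin receptor, was at 8.62 and 7.33 in heterozygous arrays, against 3.27 and 5.20 in wt arrays (3.75 ± 0.70, adjusted p = 0.0165). Ly86, the partner of the Toll-like receptor relative CD180, was at 8.92 and 8.75 in heterozygous arrays, against 4.43 and 6.57 in wt arrays (3.34 ± 0.52, adjusted p = 0.00517). C5ar1, the receptor for complement C5a, was at 8.09 and 7.50 in heterozygous arrays, against 3.93 and 5.22 in wt arrays (3.23 ± 0.47, adjusted p = 0.00312). In each of these genes replicate 2 of wt was nearer to the heterozygous arrays than replicate 1 was. Cd53, a tetraspanin of leukocytes, was at 9.92 and 9.39 in heterozygous arrays, against 5.28 and 7.65 in wt arrays (3.19 ± 0.69, adjusted p = 0.041). Rac2, a GTPase of blood cells, rose at least 2.54-fold over the dim level (adjusted p = 0.00465). Otulinl rose at least 3.94-fold over it (adjusted p = 0.0144). Without replicate 1 of the heterozygous cells the adjusted p of these 6 genes was 0.062 for C5ar1, 0.0664 for Ly86, 0.0671 for Rac2, 0.152 for Otulinl, 0.165 for Clec4n and 0.227 for Cd53. Cd53 also lost its call without replicate 2 of the heterozygous cells (0.113) and without replicate 1 of wt (0.0653), and Otulinl without replicate 2 of wt (0.102). Pik3ap1, a PI3K adaptor of immune cells, was the 1 further macrophage marker with both wt arrays dim among those called, at least 1.18-fold higher (adjusted p = 0.0326, 0.237 without replicate 1 of the heterozygous cells and 0.113 without replicate 2 of wt).

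**Figure D3:**
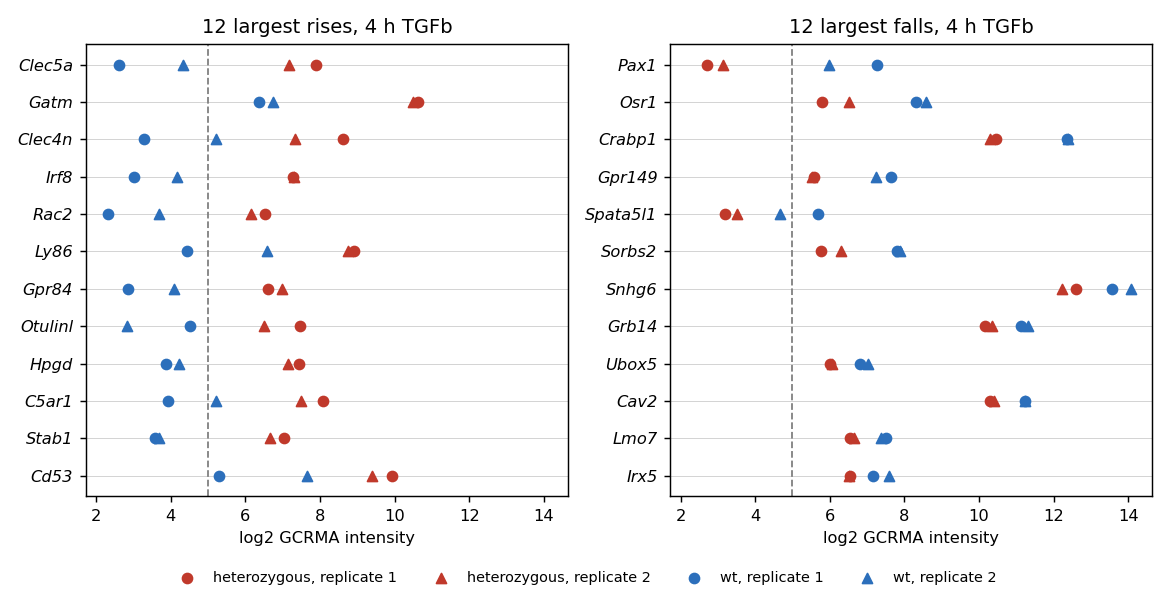
Log2 GCRMA intensity (x axis) of the 12 named genes with the largest rises (left) and the 12 with the largest falls (right) in the 2 heterozygous arrays (red) and the 2 wt arrays (blue) at 4 h TGFb, circles for replicate 1 and triangles for replicate 2, with the dim level of 5 dashed. Only called genes whose groups do not overlap were eligible. Most of the rises have at least 1 wt array under the dim level, whereas Crabp1, Snhg6, Grb14 and Cav2 fell at bright levels.

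Gatm, the enzyme that makes the creatine precursor guanidinoacetate, had the smallest p of all genes. It was at 10.64 and 10.49 in heterozygous arrays, against 6.37 and 6.73 in wt arrays (4.02 ± 0.21, 16.2-fold, adjusted p = 9.11e-07). Both pairs were tight and far apart. It was the 1 gene called when only the 4 arrays compared were fitted (adjusted p = 0.0292), and it was called without each of the 4 arrays. With the macrophage mean as a covariate it differed by 3.21 (adjusted p = 5.7e-05). Among other rises picked after their values were seen, Apoe, a lipid carrier protein, was at 11.58 and 11.19 in heterozygous arrays, against 8.73 and 8.97 in wt arrays (2.54 ± 0.28, adjusted p = 0.000474). Msr1, a macrophage scavenger receptor, was at 10.05 and 9.63 in heterozygous arrays, against 6.32 and 7.06 in wt arrays (3.15 ± 0.38, adjusted p = 0.00097). Both showed a gap between groups wider than that within either. Runx1, a transcription factor of blood development, was at 9.39 and 9.56 in heterozygous arrays, against 8.28 and 7.77 in wt arrays (1.45 ± 0.20, adjusted p = 0.002). Cd36, a fatty acid and scavenger receptor that stood on the adipocyte list, was at 9.15 and 8.89 in heterozygous arrays, against 6.15 and 7.46 in wt arrays (2.22 ± 0.38, adjusted p = 0.00983, and 0.107 without replicate 1 of the heterozygous cells). Cd36 was the 1 called of 5 adipocyte markers, where 1.43% of all genes tested were called.

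Retinoic acid genes changed in both directions. Retinoic acid is made from retinaldehyde by ALDH1A enzymes, bound in the cytoplasm by CRABP proteins and read by nuclear receptors. Of 11 measured genes 2 were called higher and 1 lower, with a median of 0.05. Of all genes tested 1.2% were called higher and 0.228% lower. Dhrs3, which reduces retinaldehyde back to retinol, was at 8.24 and 8.23 in heterozygous arrays, against 6.71 and 6.02 in wt arrays (1.87 ± 0.19, 3.67-fold, adjusted p = 0.000402). Aldh1a2, a retinaldehyde dehydrogenase, was at 9.66 and 9.56 in heterozygous arrays, against 8.51 and 7.94 in wt arrays (1.39 ± 0.26, adjusted p = 0.017). Crabp1 was at 10.46 and 10.29 in heterozygous arrays, against 12.35 and 12.38 in wt arrays, and fell (-1.99 ± 0.21, adjusted p = 0.000402). Dhrs3 and Crabp1 were called without each of the 4 arrays, and with the macrophage mean as a covariate they differed by 2.07 (adjusted p = 0.00372) and -1.37 (0.017). Aldh1a2 lost its call without replicate 1 of the heterozygous cells (adjusted p = 0.14), replicate 2 of them (0.0782) or replicate 2 of wt (0.12), and with that covariate (1.25, adjusted p = 0.0882). Crabp2, the other cytoplasmic binding protein, had a difference of 0.95 and was not called (adjusted p = 0.12). The receptors Rara, Rarg and Rxra had differences of -0.04, -0.20 and -0.26 and were not called.

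ATF4 is a transcription factor that raises amino acid transport and synthesis genes under stress. Of 19 measured genes of that programme 3 were called higher and 0 lower, with a median of 0.35, while 1.2% of all genes tested were called higher. Chac1, which degrades glutathione, was at 9.96 and 9.39 in heterozygous arrays, against 8.73 and 9.01 in wt arrays (0.80 ± 0.16, adjusted p = 0.0283). Mthfd2, a mitochondrial folate enzyme, was at 12.26 and 12.12 in heterozygous arrays, against 11.76 and 11.61 in wt arrays (0.50 ± 0.11, adjusted p = 0.0325), and a second probe set of it differed by 0.13. Slc3a2, the heavy chain of amino acid transporters, was at 11.97 and 11.86 in heterozygous arrays, against 11.43 and 11.56 in wt arrays (0.42 ± 0.09, adjusted p = 0.0431). The pairs of all 3 genes were separate but close. Atf4 itself had a difference of 0.05 and was not called. The list had 0 genes called without replicate 1 of the heterozygous cells, 2 without replicate 2 of them, 3 higher and 1 lower without replicate 1 of wt, and 2 without replicate 2 of wt. The count was 1 after quantile normalization and 0 with equal array medians, no filter on dim genes or array weights, against 8 with the crossed replicate block. With the macrophage mean as a covariate 0 were called higher and 2 lower.

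The largest falls among the 23 lower genes included developmental transcription factors. Pax1, a transcription factor of the sclerotome and limb girdle, was at 2.71 and 3.14 in heterozygous arrays, against 7.26 and 5.99 in wt arrays, at least 3.08-fold lower (adjusted p = 0.002). Osr1, a transcription factor of mesenchymal progenitors, was at 5.80 and 6.51 in heterozygous arrays, against 8.32 and 8.58 in wt arrays (-2.29 ± 0.33, adjusted p = 0.00284). Gpr149, an orphan receptor, was at 5.58 and 5.53 in heterozygous arrays, against 7.65 and 7.25 in wt arrays (-1.90 ± 0.29, adjusted p = 0.00454). Genes with overlap were left out when the falls were picked, and Pax1 alone of these 3 was dim in both heterozygous arrays. Snhg6, a snoRNA host gene, was at 12.59 and 12.22 in heterozygous arrays, against 13.56 and 14.06 in wt arrays (-1.40 ± 0.17, adjusted p = 0.00105). Grb14, an adaptor that inhibits the insulin receptor, was at 10.16 and 10.36 in heterozygous arrays, against 11.13 and 11.31 in wt arrays (-0.97 ± 0.12, adjusted p = 0.00107). Cav2, a caveolar membrane protein, was at 10.29 and 10.41 in heterozygous arrays, against 11.23 and 11.22 in wt arrays (-0.87 ± 0.16, adjusted p = 0.0127). Its partner Cav1, named after its values were seen, was at 12.81 and 13.03 in heterozygous arrays, against 13.60 and 13.61 in wt arrays (-0.69 ± 0.09, adjusted p = 0.002).

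The smaller or less certain falls were those of Spata5l1, at least 1.13-fold lower (adjusted p = 0.0113), Sorbs2, an adaptor of the actin cytoskeleton (-1.83 ± 0.41, adjusted p = 0.0484), Ubox5, a ubiquitin ligase (-0.88 ± 0.15, adjusted p = 0.00983), Lmo7, a LIM domain protein (-0.85 ± 0.19, adjusted p = 0.0479), and Irx5, an Iroquois transcription factor (-0.83 ± 0.19, adjusted p = 0.0484). The wt arrays of Spata5l1 were at 5.68 and 4.67, so 1 of them was itself dim. A second probe set of Ubox5 differed by -0.02. Pax1, Crabp1, Snhg6, Grb14 and Cav1 were called without each of the 4 arrays. Without replicate 1 of the heterozygous cells the adjusted p was 0.0536 for Gpr149, 0.0564 for Osr1, 0.0909 for Ubox5, 0.115 for Spata5l1, 0.127 for Cav2, 0.197 for Irx5, 0.227 for Lmo7 and 0.258 for Sorbs2. Other single arrays ended the calls of Lmo7 (each of the 4), Sorbs2 and Irx5 (replicate 2 of either genotype, with adjusted p of 0.0952 to 0.24), Ubox5 (0.0578 without replicate 2 of wt) and Cav2 (0.0514 without replicate 2 of the heterozygous cells). For Lmo7 these values were 0.136 without replicate 2 of the heterozygous cells, 0.052 without replicate 1 of wt and 0.0924 without replicate 2 of wt. With the macrophage mean as a covariate Pax1 was not called (adjusted p = 0.0636), while Osr1 (-2.57, adjusted p = 0.0151) and Snhg6 (-2.18, adjusted p = 1.83e-05) stayed called.

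Of the ligand genes of the TGFb pathway Tgfb1 was the 1 that passed the test. Of 12 measured genes for ligands, their latency and activation 1 was called, against 1.43% of all genes tested. The list's median was 0.09. Tgfb1, the gene of the ligand added to the cells, was at 11.61 and 11.56 in heterozygous arrays, against 11.12 and 11.06 in wt arrays (0.50 ± 0.10, 1.41-fold, adjusted p = 0.0277). Both pairs were tight and did not overlap. The call was lost without replicate 1 (adjusted p = 0.165) or replicate 2 (0.101) of the heterozygous cells and without replicate 2 of wt (0.104). Tgfb2 and Tgfb3 had differences of 0.37 and 0.23 and were not called.

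No receptor, Smad or feedback gene was called, among 9 and 13 measured. Tgfbr1, the type I receptor named in the title of the series, was at 10.91 and 10.94 in heterozygous arrays, against 10.74 and 10.64 in wt arrays (0.24 ± 0.10, adjusted p = 0.347). An expression level does not report a point mutation. Tgfbr2, the type II receptor, was at 11.26 and 11.16 in heterozygous arrays, against 10.90 and 10.81 in wt arrays (0.35 ± 0.14, adjusted p = 0.331). Smad7, the inhibitory Smad, was at 11.45 and 11.24 in heterozygous arrays, against 11.56 and 12.49 in wt arrays (-0.69 ± 0.21, adjusted p = 0.178), and a second probe set differed by -0.24. The gap was mostly that of replicate 2 of wt, being -1.15 without replicate 1 of wt and -0.22 without replicate 2 of wt. With the macrophage mean as a covariate Smad7 differed by -1.34 and was called (adjusted p = 0.0162). Without replicate 1 of wt 1 receptor or Smad gene was called higher, and 2 feedback genes were called higher and 1 lower. The medians were 0.03 for receptors and Smads, which was -0.01 with equal array medians, and -0.04 for feedback inhibitors.

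Genes listed as known TGFb targets did not pass the test, and not all of those shown rose in these cells at 4 h. Of 21 TGFb/Smad target genes 0 were called, their median was 0.07, and they ranged between -0.33 and 0.50. Il11, an IL-6 family cytokine, was at 11.75 and 11.47 in heterozygous arrays, against 11.60 and 11.67 in wt arrays (-0.02 ± 0.28, adjusted p = 0.983). Ccn2, a matricellular target, was at 15.76 and 15.78 in heterozygous arrays, against 15.69 and 15.76 in wt arrays (0.05 ± 0.07, adjusted p = 0.813). Lce1f, a cornified envelope gene, was at 11.77 and 11.66 in heterozygous arrays, against 10.92 and 11.56 in wt arrays (0.47 ± 0.20, adjusted p = 0.357). In Ccn2 and Lce1f both heterozygous arrays lay above both wt arrays, and those of Il11 overlapped. Without replicate 1 of wt 1 target was called higher and 1 lower, and 0 were called without each of the other arrays. Acta2, smooth muscle actin, was at 15.44 and 15.34 in heterozygous arrays, against 15.35 and 15.51 in wt arrays (-0.04 ± 0.08, adjusted p = 0.861). With the macrophage mean as a covariate Acta2 differed by -0.35 and was called (adjusted p = 0.0241). Col1a1, the other type I collagen chain, was at 15.03 and 15.09 in heterozygous arrays, against 14.89 and 14.64 in wt arrays (0.30 ± 0.11, adjusted p = 0.263). From untreated to 4 h Ccn2 moved by 0.09 in heterozygous and 0.11 in wt cells, Acta2 by -0.07 and 0.02, and Col1a1 by -0.38 and -0.42. Il11 rose by 4.56 and 4.19 and Lce1f by 5.41 and 5.18. Ccn2, Acta2 and Col1a1 are thus no readout of induction at 4 h here. The difference of Id1, a BMP target, was 0.03 ± 0.34 (adjusted p = 0.983). Of 19 collagens and 25 contractile genes 0 were called, with medians of 0.12 and 0.03, the second of which was -0.02 with equal array medians. Without replicate 1 of wt 1 collagen was called higher and 2 contractile genes lower. The matrix glycoprotein Thbs2 (0.59 ± 0.13, adjusted p = 0.0426) was the 1 called of 27 matrix glycoproteins and proteoglycans, and 2 further probe sets of it differed by -0.05 and 0.42. No gene of that list was called after averaging each gene's probe sets, without the filter on dim genes, with equal array medians, after quantile normalization, or with array weights or a replicate block, and 4 were called higher and 1 lower with the crossed block. Dusp6, a phosphatase that turns off ERK, was the 1 called of 22 immediate early genes (0.58 ± 0.10, adjusted p = 0.0127). Among all genes tested 1.43% were called, to set beside 1 of these 27 and 1 of these 22. The calls of Thbs2 and Dusp6 were lost without either heterozygous array or replicate 2 of wt, with adjusted p of 0.0636 to 0.183.

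The genes TGFb moved in homozygous cells give a list whose differences used none of the 4 arrays compared. Its adjusted p still rests on the spread pooled over all 18 arrays, those 4 included. In homozygous cells at 4 h TGFb raised 20.1% and lowered 17.5% of the genes tested at an adjusted p under 0.05. Of those raised 365 rose by more than 2-fold, and 364 of them were higher at 4 h than untreated in heterozygous cells and 362 in wt cells. Their median response was 1.24 in heterozygous cells and 1.04 in wt cells. At 4 h their median heterozygous minus wt difference was 0.10, with 8 called higher (2.19%) and 0 lower. Of the 369 genes that fell by more than 2-fold in homozygous cells, 3 were called higher (0.81%) and 4 lower (1.08%) between heterozygous and wt cells at 4 h. Their median was -0.05. Of all genes tested 1.2% were called higher and 0.228% lower. These shares rest on few genes and were not tested against each other.

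**Figure D4:**
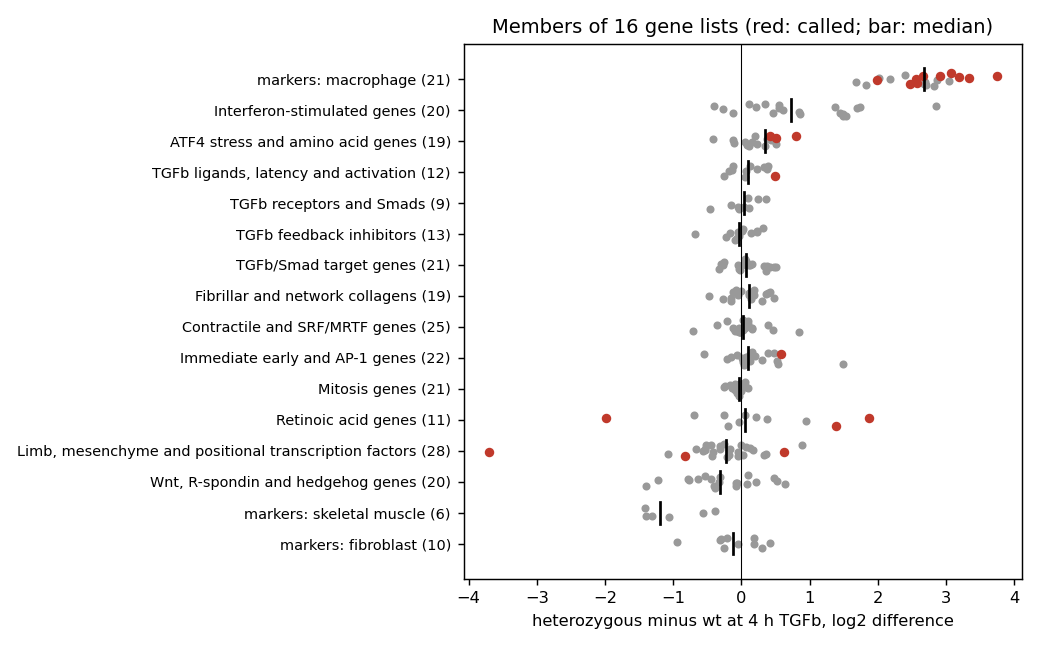
Heterozygous minus wt log2 difference at 4 h TGFb (x axis) of each measured member of 16 gene lists (rows, number of members in brackets), called genes in red, others in grey and a black bar at each list's median. The macrophage markers stand at a median of 2.67 and the interferon-stimulated genes at 0.72, while TGFb/Smad targets, collagens and contractile genes lie near 0 and skeletal muscle markers at -1.19.

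Several lists had a median away from 0 with no called gene. With the crossed replicate block, which was added after the data were seen, 7 interferon-stimulated genes were called higher, and 3 skeletal muscle markers and 4 Wnt, R-spondin and hedgehog genes lower. The 20 interferon-stimulated genes had a median of 0.72, and their mean level was 7.11 and 7.22 in heterozygous arrays, against 5.61 and 6.99 in wt arrays. Replicate 2 of wt was close to the heterozygous arrays, and replicate 1 of wt was low. Usp18, which removes ISG15 from proteins, was at 8.31 and 8.27 in heterozygous arrays, against 3.04 and 7.84 in wt arrays (2.85 ± 1.33, adjusted p = 0.406). The list's median was 0.25 without replicate 1 of wt and 1.22, with 2 genes called higher, without replicate 2 of wt. Among 17 chemokine and inflammatory genes 1 was called, against 1.43% of all genes tested. This gene was Ccl5, a T cell chemokine. It was at 6.86 and 5.61 in heterozygous arrays, against 3.79 and 4.05 in wt arrays, at least 2.35-fold higher (adjusted p = 0.0484), and it lost the call without replicate 1 of the heterozygous cells (0.287), replicate 1 of wt (0.0503) or replicate 2 of wt (0.117). It also lost the call when 16 was added to each value before the log2, with quantile normalization or array weights, without the filter on dim genes or the intensity trend, with equal array medians, and with only the wt and heterozygous arrays.

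The 6 skeletal muscle markers had a median of -1.19, and in 4 of them both heterozygous arrays lay below both wt arrays, an order found in 14.8% of all genes tested. Acta1, skeletal actin, was at 10.68 and 10.24 in heterozygous arrays, against 11.05 and 12.66 in wt arrays (-1.40 ± 0.57, adjusted p = 0.329). Actc1, cardiac actin, was at 7.17 and 6.81 in heterozygous arrays, against 9.12 and 7.69 in wt arrays (-1.42 ± 0.54, adjusted p = 0.293). The wt array that was the higher one differed between these genes. Of 28 limb and positional transcription factors 1 was called higher and 2 lower, against 1.2% and 0.228% of all genes tested. Their median was -0.23. Without replicate 1 of wt these counts were 2 and 5. Foxc2, a forkhead factor of mesenchyme, was the higher one, at 11.49 and 11.45 in heterozygous arrays, against 10.90 and 10.80 in wt arrays (0.62 ± 0.11, adjusted p = 0.0125). It lost its call without either heterozygous array (adjusted p = 0.109 and 0.059) or replicate 2 of wt (0.0606). Of 20 Wnt, R-spondin and hedgehog genes 0 were called, with a median of -0.32 that was -0.03, with 1 gene called lower, without replicate 1 of wt. With equal array medians or quantile normalization 1 was called lower. Without replicate 2 of wt 1 was called higher. The 21 mitosis genes lay between -0.26 and 0.10, and 0 were called.

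The genes called at 4 h had differences of the same sign in untreated cells, and 62 of the 121 higher and 9 of the 23 lower ones were also called there. Untreated cells had 93 genes called between the genotypes (0.923%), 78 higher (0.774%) and 15 lower (0.149%), and cells at 24 h had 123 (1.22%), 106 higher (1.05%) and 17 lower (0.169%). The times are not independent replicates, since same-numbered heterozygous arrays deviated together across them, with correlations of deviations of 0.376 to 0.453. All 121 genes called higher at 4 h had a positive difference untreated and at 24 h, those called higher untreated made up 51.2% of the 4 h list and 79.5% of the untreated list, and 72 were called at 24 h (59.5% and 67.9%). Their median difference was 1.51 untreated, 2.02 at 4 h and 1.72 at 24 h. The genes were selected by their calls at 4 h, which favours a larger value there, so these medians do not show a change with time. Of the 23 lower genes all were negative untreated and 21 at 24 h, with 11 called lower at 24 h. Gatm differed by 3.49 untreated and 3.40 at 24 h, and Crabp1 by -2.36 and -2.37. In all, 55 genes were called higher and 8 lower at all 3 times. The 42 higher and 11 lower genes called at 4 h and at neither other time are not thereby shown to differ between times.

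**Figure D5:**
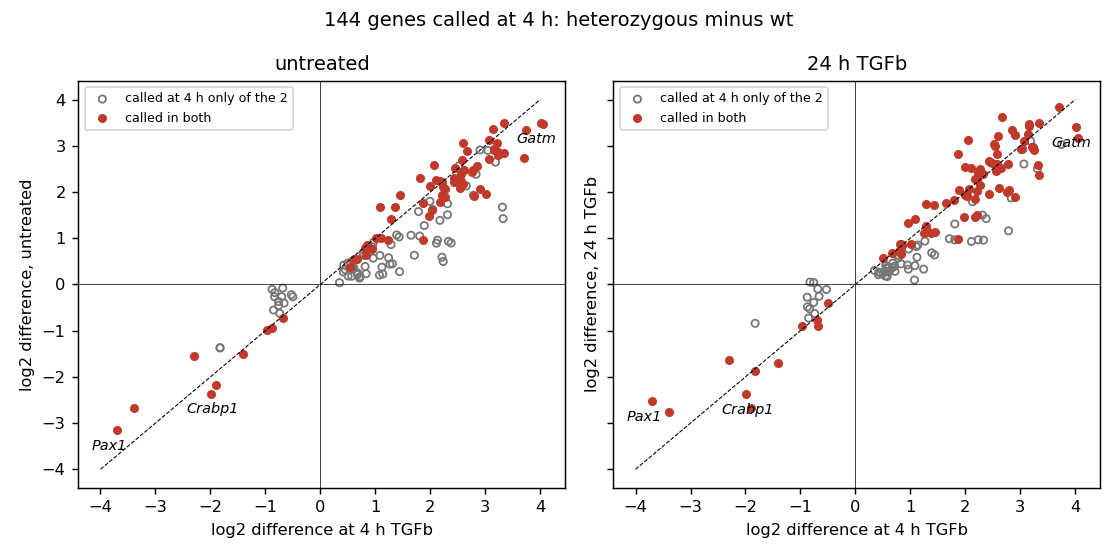
Heterozygous minus wt log2 difference of the 144 genes called at 4 h TGFb (x axis) against the same difference in untreated cells (left, y axis) and at 24 h TGFb (right, y axis), filled red where the gene was called at both and open grey otherwise, with the line of equal values dashed. Most genes lie along that line, somewhat below it on the left, and Gatm, Crabp1 and Pax1 keep their sides at all 3 times. The genes were selected at 4 h, which favours larger differences on the x axis.

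Whether the response to 4 h of TGFb differed between the genotypes was tested as an interaction, the difference at 4 h minus that in untreated cells. It called 0 of 10078 genes in limma (0%), with 347 at an unadjusted p under 0.05. The count was 47 without replicate 1 of wt at 4 h and 4 without replicate 1 of untreated wt, and 4 with no filter on dim genes. The smallest p belonged to Dusp14, a dual-specificity phosphatase, which TGFb raised by 1.18 in heterozygous cells and 0.41 in wt cells (interaction 0.78 ± 0.16, adjusted p = 1). Its difference was 0.48 at 4 h and -0.30 untreated. Next came Tifa, an adaptor of NF-kB signalling (interaction adjusted p = 1). Both of its groups were dim at 4 h, at 4.38 and 4.50 in heterozygous arrays, against 2.34 and 2.08 in wt arrays, so no fold or response is given. Skil, a feedback inhibitor that blocks Smads, had responses of -0.09 in heterozygous cells and 0.43 in wt cells (interaction -0.53 ± 0.13, adjusted p = 1). At 4 h itself Skil was at 12.05 and 12.10 in heterozygous arrays, against 12.08 and 12.20 in wt arrays.

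Homozygous cells at 4 h share the wt arrays with this comparison, so their differences from wt are given side by side only. Gatm differed from wt by 4.02 in heterozygous and 2.70 in homozygous cells, Dhrs3 by 1.87 and 1.77, Crabp1 by -1.99 and -2.06, Osr1 by -2.29 and -2.62, and Tgfb1 by 0.50 and 0.47. Stab1 was at least 3.60-fold higher than in wt in heterozygous cells, and was at 5.54 and 6.07 in homozygous arrays. In a few genes the homozygous arrays lay near the wt arrays. Pax1, at least 3.08-fold lower in heterozygous cells, was at 6.51 and 6.36 in homozygous arrays, and Spata5l1, at least 1.13-fold lower in heterozygous cells, was at 5.43 and 5.00 in them. Irx5 differed by -0.83 and -0.09, and Tmem87a, a Golgi membrane protein picked after its values were seen, by 1.24 and 0.10. Heterozygous and homozygous cells were not tested against each other.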

How the data were processed

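RNA was hybridised to 18 Affymetrix mouse expression arrays, 2 for each of 9 groups. The deposited values are linear intensities, 1 per probe set, that the authors made with GCRMA, a background correction and normalization method, per the submitters' processing notes, and its version is not given in the sources used here. No scan date was used, so no such batch was modelled. Values were converted to log2 here without further scaling. Of 45101 probe sets 34945 have a single gene symbol. A probe set was kept at log2 of at least 5 in at least 2 of 18 arrays, and the brightest with a single symbol stood for its gene, which left 10078. limma 3.58.1 in R 4.3.3 fitted the 9 group means to all arrays (eBayes with an intensity trend, two-sided, Benjamini-Hochberg over all genes, called under 0.05). The 4 arrays compared and the number of arrays limit the precision. The fit was tested on simulated data.

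The 12 largest rises and falls without overlap, 12 key genes (11 measured), up to 4 called members of each of 38 lists (519 of 686 genes measured) and the 5 smallest interaction p-values were named, and predicted genes were left unnamed. The members and lists were chosen with earlier results of these data known. Replicate numbers did not pair arrays across genotypes (their deviations correlated at -0.152 at 4 h).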

Additional observations from a re-analysis of the deposited data

Results flagged for a closer look

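For 3 of the genes with the smallest interaction p, every array pair moved one way at 4 h and the other way at another time, and the interaction was not past the threshold for any of them (adjusted p = 1). The heterozygous minus wt difference of Dusp14, a dual-specificity phosphatase, was 0.48 at 4 h and -0.30 untreated. That of Apbb1ip, a RAP1 adaptor of blood cells, was 0.73 at 4 h and -0.38 untreated, with levels of 7.24 and 7.13 in heterozygous arrays, against 6.49 and 6.42 in wt arrays at 4 h. That of Iqsec1, an exchange factor for ARF6, was 0.49 untreated, -0.62 at 4 h and 0.11 at 24 h, and 24 h was not tested against 4 h. A second probe set of Iqsec1 differed by 0.01 at 4 h. Of the 1516 kept probe sets with no or several gene symbols, which the comparisons above do not use, 12 were called at 4 h (0.792%), 10 higher and 2 lower, against 157 of 17442 probe sets with a single symbol (0.9%) in the same fit. No explanation was tested.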

How the results depend on the processing

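With 2 arrays a group, counts of calls moved with the arrays and the spread used, and the causes were not tested. The 144 calls at 4 h became 87 with a mean log2 of at least 6, which tests fewer genes, 31 with array weights, 57 with only the wt and heterozygous arrays, 1 with only the groups compared and 1321 with the macrophage marker mean as a covariate, of which 49 were shared. Untreated, the 93 calls became 37 with array weights, 27 with only the wt and heterozygous arrays, 0 with only the groups compared (limma, 567 at an unadjusted p under 0.05) and 463 with the macrophage covariate. At 24 h the 123 calls became 81 with no filter, 77 with a mean log2 of at least 6, 193 with array weights, 36 with only the wt and heterozygous arrays, 0 with only the groups compared (981 unadjusted) and 655 with the macrophage covariate. Leaving out 1 array gave 42 to 1220 calls at 4 h, 14 to 548 untreated and 23 to 113 at 24 h. The interaction had 0 calls in all but 3 settings, 4 with no filter and 0 to 47 when 1 array was left out. With a replicate block the calls at 4 h, untreated and at 24 h were 133, 81 and 112, it changed no count by more than 1.5 times, and 5 named genes lost and 1 gained the call at 4 h. The numbers of the untreated wt arrays appear exchanged (correlations of deviations of -0.492 and -0.663 with the treated wt pairs), and a crossed block within genotype, added after the data were seen, gave 645, 476 and 501 calls. Of the 37 named genes that were called, 25 lost the call without replicate 1 of the heterozygous cells, 12 without replicate 2, 4 without replicate 1 of wt and 13 without replicate 2 of wt. Cd53 alone changed sign, to -0.34 (adjusted p = 0.283) with the macrophage covariate. Under every alternative except the fit of only the groups compared, 15 genes stayed called, among them Gatm, Crabp1, Dhrs3, Hpgd and Snhg6. Where both arrays of a group were dim, as about 6 in 10 probe sets per array were, sizes were given only as bounds.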

Other observations

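Chromosome 2 held 14 of the called genes, 9 higher and 5 lower, a pattern noticed after the values were seen and given without a test. It held 5 of the 23 genes called lower (21.7%) and 7.4% of those called higher, while 8.06% of the genes tested lie on it. Chromosome 9 held 4 of the 23 lower genes (17.4%) and 5.82% of the genes tested. In the order of protein-coding genes of the RefSeq table (GRCm38.p6), Spata5l1 directly follows Gatm. Gatm was higher by 4.02 and Spata5l1 at least 1.13-fold lower in heterozygous cells. In homozygous cells, set against the same wt arrays, Gatm differed by 2.70, and Spata5l1 was at 5.43 and 5.00. Tmem87a and Ubox5 lie on the same chromosome, with heterozygous differences of 1.24 and -0.88, and homozygous ones of 0.10 and -0.41. So does Pax1, at least 3.08-fold lower in heterozygous cells and at 6.51 and 6.36 in homozygous arrays. Most others called there differed in the same direction in both mutant groups. Heterozygous and homozygous differences were 0.679 and 0.776 for Phyh, -0.965 and -0.868 for Grb14, and 0.947 and 1.025 for Fibin. They were 0.803 and 0.714 for Chac1, 0.72 and 0.48 for Apmap, and 0.347 and 0.351 for Ctsz. A predicted gene, called lower, was at 3.97 and 4.01 in heterozygous and 7.22 and 6.76 in homozygous arrays.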
